A study of Solanum dulcamara with 18 samples.

Results

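The leaf response of Solanum dulcamara to 48 h of feeding by caterpillars of Spodoptera exigua was measured by RNA-seq in plants under control watering. The comparison sets 3 infested libraries (titled control_baw) against 3 uninfested ones (control_no), which are 6 of the 18 libraries of the series, and covers all 20170 assembled contigs that passed the filter on low counts, of 24158 in the table. Libraries were assigned by their titles, and their columns by the number that each sample description gives. S. dulcamara, bittersweet nightshade, is a wild perennial relative of tomato and potato. S. exigua, the beet armyworm (BAW in the labels), is a generalist leaf chewer. Infested and uninfested plants both had 5 days of control watering in a greenhouse, and the watering went on while caterpillars fed for 2 days on the infested plants. The design text calls the 3 libraries of a group biological replicates, and neither the number of plants per library nor the feeding damage is stated in the sources used here. The other 12 libraries, from drought and flooding plants with and without the caterpillars, entered the filter on low counts, the scaling and the shared estimate of spread, and served to follow the same contigs outside the contrast that called them.

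In nightshades and other plants, chewing by insects is known to trigger jasmonate signalling. The hormone reprogrammes the leaf within hours, and classical products of this program in tomato and potato are proteinase inhibitors and oxidative enzymes that hinder digestion in the insect gut. Photosynthesis genes are often reported to decline at the same time. The deposited tables pair contigs with no gene names, and 0 of the 24158 contig IDs matched the S. dulcamara gene table from RefSeq, so none of these pathways, nor the identity of the tissue, could be checked by marker genes here. Contigs are identified by ID or by length in bases, and no role is assigned to any of them.

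Libraries of uninfested control plants held between 7838462 and 16056241 reads, and those of infested control plants between 8667361 and 10171944. Mean read depth was 13102408 ± 4570059 in uninfested and 9547525 ± 784217 in infested plants (SD, n = 3 each). The ranges overlapped, since uninfested replicate 1 held the fewest reads of the 6 libraries. The part of read depth in the results was not tested. All 6 replicate pairs within the 2 groups differed by more than counting noise, with a chi-square per degree of freedom of 7.72 to 24.9. Infested and uninfested libraries also carry separate runs of column numbers in the descriptions, so a handling difference that followed those runs cannot be told apart from feeding.

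Feeding changed 2124 contigs (10.5% of those tested) at a Benjamini-Hochberg adjusted p under 0.05 in edgeR's quasi-likelihood test, and the large changes were increases. Of these contigs, 1334 rose (6.61%) and 790 fell (3.92%). Contigs that changed at least 2-fold comprised 648 rises (3.21%) and 168 falls (0.833%), and contigs that changed at least 8-fold comprised 102 rises (0.506%) and 1 fall (0.00496%). The median rise was 0.98 on the log2 scale, with quartiles at 0.62 and 1.63. Falls were smaller, with a median of −0.66 and quartiles at −0.93 and −0.49. Among the risen contigs, 22.0% changed by less than 1.5-fold, 29.4% by 1.5- to 2-fold, 30.7% by 2- to 4-fold, 10.2% by 4- to 8-fold and 7.65% by 8-fold or more. Among the fallen contigs 38.6% changed by less than 1.5-fold and 40.1% by 1.5- to 2-fold, which leaves 152 contigs between 2- and 4-fold and 15 between 4- and 8-fold. The groups were separate, with the infested libraries higher, in 3431 tested contigs (17%), and with them lower in 3251 (16.1%). Among called contigs the groups did not overlap in 1311 of the rises and 779 of the falls. The number of calls depended on single libraries. It was 1024 when uninfested replicate 1 was left out and 937 when replicate 2 was. The fits that lacked infested replicate 1 or 2 called 1252 and 1264 contigs. Rises made up 71.0% to 75.9% of the calls in these 4 fits, against 62.8% with all libraries.

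**Figure D1:**
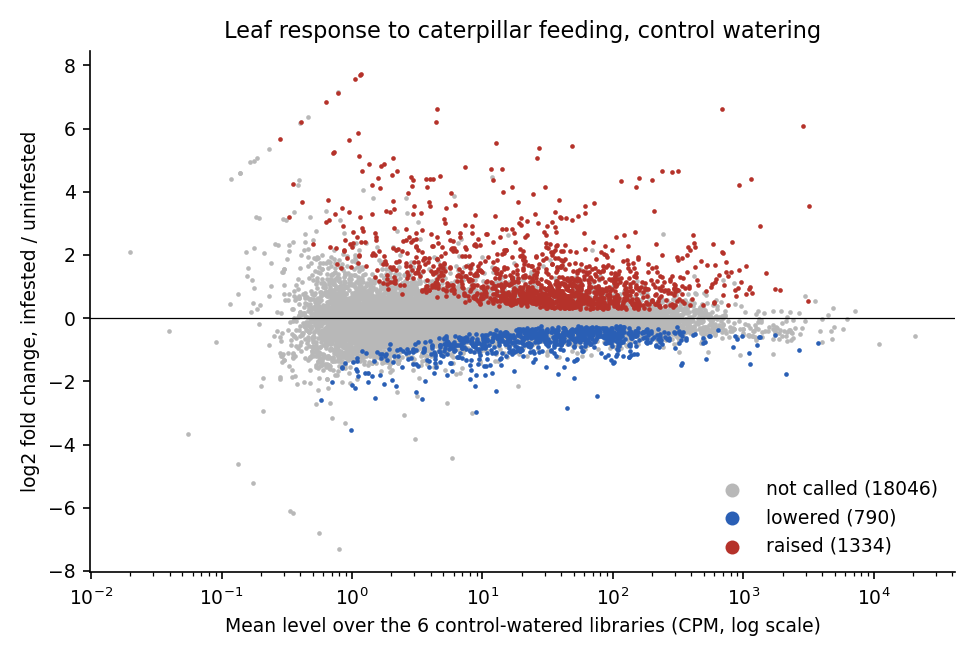
Each point is 1 of the 20170 tested contigs, with its mean level over the 6 control-watered libraries in CPM (library-size scaled counts, log axis) against the log2 fold change of infested over uninfested plants. The 1334 raised contigs reach further from 0 than the 790 lowered ones, and the smallest changes that were called are larger at low levels.

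Among raised contigs, comp12126_c0_seq1 (1144 bases) had one of the smallest p-values. It stood at 9.50, 10.6 and 10.6 CPM in the 3 uninfested libraries and at 122, 98.6 and 71.8 CPM in the 3 infested ones. CPM here is the read count relative to the scaled library size, as in the plot of change against level. The groups lay far apart and the uninfested libraries were close together. The log2 fold change was 3.24 ± 0.25 (SE; edgeR's adjusted p = 6.71e-06).

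comp11888_c0_seq1 (908 bases) was nearly silent without caterpillars. Its read counts were 0, 3 and 0 in uninfested and 97, 92 and 51 in infested libraries, or 8.93 ± 3.08 CPM in infested plants (SD, n = 3). Relative to read depth, the 240 infested reads against 3 uninfested ones gave a 111-fold ratio, with a 95% interval of 37.6 to 542 that covers counting error only (edgeR adjusted p = 6.71e-06). The fitted log2 fold change of 6.63 ± 0.53 (SE) depends on the prior count at such low values, and ran from 5.96 without uninfested replicate 3 to 9.61 without uninfested replicate 2.

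Among lowered contigs, comp14844_c0_seq1 (2557 bases) stood at 87.4, 89.0 and 58.9 CPM in uninfested and at 12.1, 6.37 and 14.5 CPM in infested libraries. Its highest infested library lay well below its lowest uninfested one. The log2 fold change was −2.84 ± 0.25 (SE; edgeR's adjusted p = 1.13e-05). comp2823_c0_seq1 (3147 bases) fell less but evenly, from 155, 153 and 136 CPM to 52.3, 49.0 and 69.3 CPM (−1.38 ± 0.18, adjusted p = 0.000176).

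A few contigs took over a visible part of the transcript pool. The 5 largest gains in mean CPM together held between 0.0640% and 0.164% of the reads in uninfested libraries and between 1.40% and 2.27% in infested ones. A 646-base contig rose from 320, 417 and 763 CPM to 4503, 8211 and 4979 CPM (log2 fold change 3.56 ± 0.53, SE; edgeR's adjusted p = 0.000602). Per kilobase of contig this moved it from place 82 among all tested contigs, at 774 CPM per kilobase, to place 2, at 9130 CPM per kilobase. An 861-base contig rose from 56.5, 66.3 and 124 CPM to 3860, 8397 and 4709 CPM (6.10 ± 0.74, adjusted p = 0.000162). Its place per kilobase went from 1196 to 3. Both contigs were highest in replicate 2 among infested libraries and in replicate 3 among uninfested ones.

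The next largest gains belonged to contigs of 1976, 1805 and 746 bases. The 1976-base contig went from 104 ± 46.8 to 2192 ± 710 CPM (SD, n = 3 each; log2 fold change 4.39 ± 0.41, SE; edgeR's adjusted p = 1.81e-05). The 746-base contig went from 93.7 ± 30.9 to 1755 ± 545 CPM (4.22 ± 0.50, adjusted p = 0.000127). The 1805-base contig, already at 313 ± 149 CPM without feeding, reached 2381 ± 637 CPM (2.93 ± 0.58, adjusted p = 0.00522) and was the only one of the 5 whose highest infested library was not replicate 2. In each of the 5, uninfested and infested libraries did not overlap, as the rule for naming required.

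Losses were more modest, and those largest in CPM came from abundant contigs, which a ranking by CPM favours. In the most abundant of 10 classes of contigs 0.496% fell at least 2-fold, against 0.833% of all tested contigs. The 5 largest losses in mean CPM held between 0.914% and 1.14% of reads in uninfested libraries and between 0.305% and 0.505% in infested ones. A 1548-base contig fell from 3452, 3724 and 2716 CPM to 921, 599 and 1384 CPM (log2 fold change −1.77 ± 0.48, SE; edgeR's adjusted p = 0.0302), and left place 21 per kilobase for place 112. This call was lost without uninfested replicate 1 or 2 or infested replicate 1 or 2 (adjusted p = 0.0826, 0.0972, 0.0975 and 0.117). A 1142-base contig fell from 3575 ± 397 to 1776 ± 368 CPM (SD, n = 3 each; −1.01 ± 0.21, adjusted p = 0.00558). Contigs of 2642, 762 and 1612 bases made up the rest, with log2 fold changes of −1.46 ± 0.31, −1.11 ± 0.21 and −1.28 ± 0.28 (adjusted p = 0.00684, 0.00282 and 0.00765). In all 5, infested replicate 3 held the highest infested value, nearest to the uninfested plants.

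**Figure D2:**
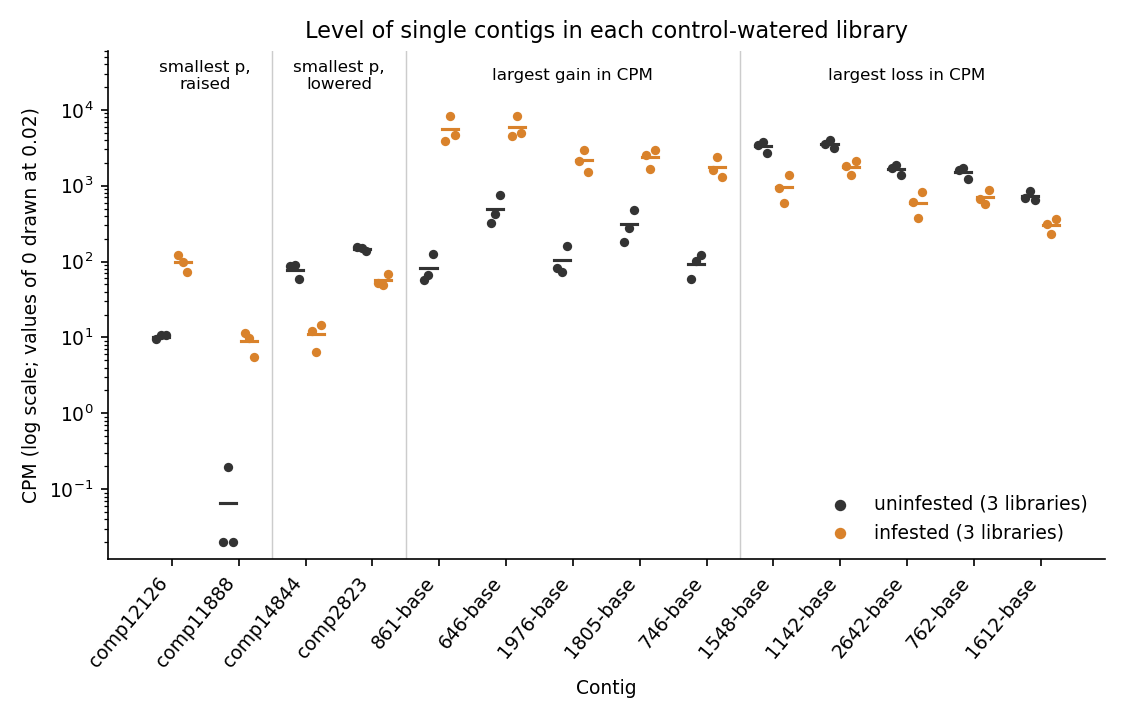
CPM of single contigs in each control-watered library (log axis), with 3 points and a bar at the mean for uninfested (dark) and infested (orange) plants; contigs are labelled by ID or length. The 5 largest gains end between about 1283 and 8397 CPM in infested libraries, and values of 0 are drawn at 0.02.

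Of the 100 contigs with the highest level per kilobase in uninfested leaves, 77 were also among the highest 100 in infested leaves, and 23 were exchanged. Among the 23 that entered, 18 were called as raised, and among the 23 that left, 6 were called as lowered. In the most abundant of 10 classes of contigs, 11.5% rose and 7.19% fell, but contigs that enter or leave are by that choice higher or lower in infested plants, so these counts are a description. The order at the very top was retained for the first place, held by a 930-base contig in both groups at 26684 CPM per kilobase in uninfested and 18143 in infested plants, a difference that was not called (log2 fold change −0.56, adjusted p = 0.258). Of the 10 highest contigs in infested plants, the 646- and 861-base contigs were called, both as raised, and the other 8 were not called.

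The largest relative rises included contigs that were barely detected in unfed leaves. The 10 largest, among contigs with at least 8 CPM in infested plants, had log2 fold changes of 4.73 to 6.63 and lengths of 583 to 2227 bases. Beside comp11888_c0_seq1 and the 861-base contig they included a 2227-base contig at 8.25, 14.4 and 18.1 CPM in uninfested and 602, 2859 and 615 CPM in infested libraries (6.62 ± 0.82, SE; edgeR's adjusted p = 0.000202). Infested replicate 2 enlarged the rise of that contig, whose log2 fold change was still 5.46 without it. A 583-base contig rose from 2.16 ± 0.807 to 95.3 ± 56.1 CPM (5.46 ± 0.46, adjusted p = 1.17e-05), and was at 4.86 without infested replicate 1. A 590-base contig rose from 1.17 ± 0.792 to 52.8 ± 23.8 CPM (SD, n = 3; 5.39 ± 0.42, adjusted p = 6.71e-06), and was at 6.18 without uninfested replicate 3.

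The other 5 of the 10 had an uninfested mean at or under 1.54 CPM. A 685-base contig with 0, 1 and 3 reads in uninfested libraries held 60, 115 and 61 reads in infested ones (log2 fold change 6.22 ± 0.77, SE; edgeR's adjusted p = 0.000246, and 7.28 without uninfested replicate 3). A 1242-base contig was tightly grouped in uninfested libraries, at 0.559, 0.463 and 0.521 CPM. It stood at 19.3, 10.6 and 13.0 CPM in infested ones (4.79 ± 0.39, edgeR's adjusted p = 6.71e-06). Contigs of 1635, 613 and 1278 bases reached 24.9 ± 8.92, 50.5 ± 19.4 and 22.6 ± 3.85 CPM in infested plants. In 6 of the 10, infested replicate 1 was the highest infested library.

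Most raised contigs, like most of all contigs that passed the filter on low counts, had an uninfested mean of at least 1 CPM. The uninfested mean was under 1 CPM in 115 of the 1334 raised contigs (8.62%), against 6.79% of all tested contigs. The median infested mean of the 115 was 2.64 CPM. In 7 raised contigs all 3 uninfested libraries had 0 reads, as they did in 19 of all tested contigs. Against a floor of 3 reads over the uninfested group, the summed reads of the 7 were 6.94- to 29.2-fold higher in infested plants. These folds leave out the spread between libraries. The infested means of the 7 lay between 0.564 and 2.35 CPM. The lowest of the 7, a contig of 790 bases, had 8, 7 and 0 reads in the infested libraries, so infested replicate 3 was also at 0. The highest of the 7, a contig of 1230 bases chosen after its values were seen, had 27, 21 and 15 reads in the infested libraries (edgeR adjusted p = 0.000854). With the 7 set at that floor, the median of the 102 rises of at least 8-fold went from 4.15 to 4.07. Across the whole series, 1 tested contig had 0 reads in all 9 uninfested libraries, and it was not above 0 in all 9 infested ones, so no tested contig was present in every infested library and absent from every uninfested one.

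The 10 largest falls, among contigs with at least 8 CPM in uninfested plants, ran from −2.96 to −1.78 on the log2 scale. In these 10, values stayed above 0 in every infested library. A 928-base contig fell from 21.0, 9.78 and 17.1 CPM to 1.30, 0.212 and 4.54 CPM (−2.96 ± 0.62, SE; edgeR's adjusted p = 0.00711). With infested replicate 3 left out its change was −4.40. A 776-base contig fell from 14.3 ± 1.70 to 3.21 ± 0.258 CPM (SD, n = 3 each; −2.16 ± 0.35, adjusted p = 0.00115). An 1844-base contig fell from 129 ± 20.4 to 23.4 ± 10.1 CPM (−2.46 ± 0.41, adjusted p = 0.00163).

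The calls of the smaller falls in this list were fragile. Those of the contigs of 1179, 829, 891 and 1917 bases were each lost in at least 1 fit without a library, and that of the 891-base contig in every such fit (adjusted p = 0.0696 to 0.151). The call of the 829-base contig was lost without uninfested replicate 1 or infested replicate 1 (adjusted p = 0.0647 and 0.0629). Those of the 1179- and 1917-base contigs were lost without uninfested replicate 1 or 2 or infested replicate 1 or 2 (adjusted p = 0.0742 to 0.0787 and 0.0687 to 0.104). Without infested replicate 3, the log2 fold changes of the contigs of 1179 and 1038 bases were −2.52 and −3.02, against −1.91 and −2.32 with all libraries. The single fall of at least 8-fold, named here after its values were seen, was a 1443-base contig at 1.80 ± 1.08 CPM in uninfested and 0.154 ± 0.183 CPM in infested plants (log2 fold change −3.54 ± 1.01, adjusted p = 0.0348). Its read counts were 9, 46 and 17 in uninfested and 3, 1 and 0 in infested libraries. Its changes of −0.74 in drought and 0.11 in flooding plants were not called (edgeR's adjusted p = 0.739 and 0.940).

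Calls were more frequent among abundant contigs, whose standard errors were smaller. When tested contigs were split into 10 equal classes by mean log2 CPM over all 18 libraries, 3.27% of the lowest and 11.5% of the highest class rose, and 0.992% and 7.19% fell. The median SE of the log2 fold change was 0.53 in the lowest class and 0.14 in the highest. The smallest change that was called was 1.16 on the log2 scale in the lowest class and 0.26 in the highest. Rises of at least 2-fold were spread more evenly, between 2.23% and 4.51% of a class, with the largest share in the most abundant class. Falls of at least 2-fold took between 0.347% and 1.39% of a class.

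**Figure D3:**
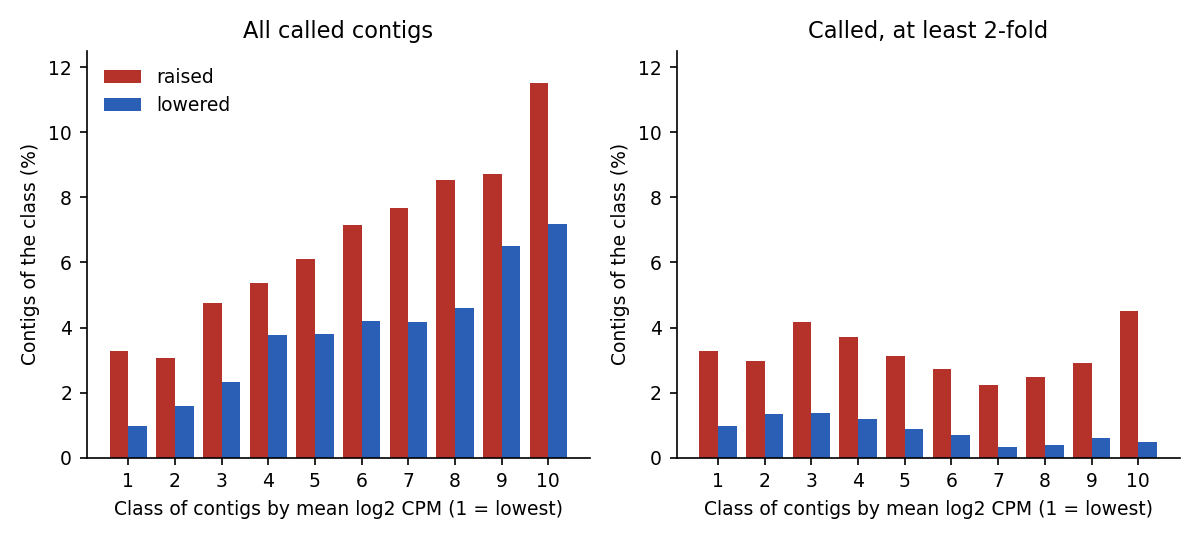
Bars give the percentage of contigs called as raised (red) or lowered (blue) in each of 10 equal classes by mean log2 CPM, for all calls (left) and for calls of at least 2-fold (right). The share of all calls grows with level, from 3.27% to 11.5% for rises, while the share of rises of at least 2-fold stays between 2.23% and 4.51%.

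The median length was 1337 bases for raised, 1550 bases for lowered and 1208 bases for all tested contigs. When contigs were split into 5 classes by length, 6.57% of the longest (2044 bases or more) rose and 6.52% fell, against 4.95% and 2.13% of the shortest (501 to 723 bases). The share that rose was largest in the classes between, at 8.01% and 8.02% in those of 1021 to 1428 and 1429 to 2043 bases. Rises of at least 2-fold took 3.84% of the shortest and 1.59% of the longest class. The 102 contigs raised at least 8-fold were shorter, with a median of 878 bases, and had a median of 0.525 CPM in uninfested plants against 14.7 CPM for all tested contigs.

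Contigs of the same assembly component, which may be copies, isoforms or fragments of related transcripts, were compared with each other. Of 120 components with several tested contigs (246 contigs), 94 had none called, 11 had 1 raised, 12 had 1 lowered, and 3 had 1 contig raised and another lowered. In all, 29 of the 246 contigs were called (11.8%), near the 10.5% over all tested contigs. One of the 3 paired a 1634-base contig that fell from 616 ± 67.3 to 360 ± 60.5 CPM (SD, n = 3 each; log2 fold change −0.78 ± 0.17, SE; edgeR's adjusted p = 0.00716) with an 1181-base contig that rose from 9.96 ± 0.539 to 14.0 ± 1.35 CPM (0.49 ± 0.15, adjusted p = 0.0446). In another, a 639-base contig fell by 1.10 (SE 0.20, adjusted p = 0.00205) and a 1220-base contig rose by 0.45 (SE 0.12, adjusted p = 0.0224) on the log2 scale. In the last, a 1484-base contig fell by 0.52 (SE 0.13, adjusted p = 0.0211) and a 2300-base contig rose by 0.40 (SE 0.10, adjusted p = 0.0189). These contigs were described after their values were seen, and the counting could have divided reads between near-identical copies.

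Libraries of the same group took different positions along the response. The median SD of log2 CPM over 3 libraries was 0.18 in uninfested and 0.20 in infested plants over all tested contigs, and 0.19 and 0.20 over raised contigs. Among raised contigs, uninfested replicate 3 was the highest uninfested library in 62.1% (34.0% over all tested contigs). Among lowered contigs it was the lowest uninfested one in 73.9% (37.3% over all). Relative to the uninfested mean, raised contigs averaged −0.09, −0.05 and 0.15 on the log2 scale in uninfested replicates 1, 2 and 3, and 1.34, 1.28 and 1.14 in infested replicates 1, 2 and 3. By these means, uninfested replicate 3 and infested replicate 3 were the nearest pair of an uninfested and an infested library. The gap between them was still wide, and libraries of the same group lay much nearer to each other. Without uninfested replicate 3 the number of calls was 2129, 57.4% of them rises, against 62.8% of 2124 with it. Raised and lowered contigs were chosen on these same libraries, so the positions are a description.

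The share of library reads on called contigs is given first for control plants, as a description, because the same libraries chose the contigs. There, raised contigs held 6.17%, 6.40% and 7.70% of reads on tested contigs in the uninfested libraries and 15.4%, 17.0% and 13.8% in the infested ones. Lowered contigs held 8.01%, 8.20% and 7.21% in uninfested and 4.71%, 4.48% and 5.07% in infested libraries. Read shares are relative, and in bulk leaf samples fewer cells of a type and less RNA per cell cannot be told apart.

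The same contigs, chosen in control plants, were followed in drought and flooding plants, whose levels were not part of the contrast that called them. Those libraries did enter the filter on low counts, the scaling and the estimate of spread. With only the 6 control libraries 18873 contigs were tested, and 38 of the 2124 called contigs were not among them. That fit called 2393 contigs, which included 1724 of the 2124 (81.2%). The contigs followed here were those of the fit with all 18 libraries. Raised contigs held 9.28 ± 0.444% of reads in uninfested and 15.2 ± 1.24% in infested drought plants (SD, n = 3 each, exact two-sided permutation p = 0.1). In flooding plants they held 6.17 ± 0.937% and 14.4 ± 0.562% (SD, n = 3 each, exact permutation p = 0.1). With 3 libraries against 3, a p of 0.1 is the smallest this test can give, and the groups did not overlap in either water treatment. Lowered contigs held 6.62 ± 0.147% in uninfested and 5.12 ± 0.281% in infested drought plants, and 8.50 ± 1.07% and 5.25 ± 0.280% in flooding plants (SD, n = 3 each, exact permutation p = 0.1 for both). The size of these differences depends on how many contigs were chosen. For lowered contigs, the change of −1.50 percentage points in drought plants was −0.637 and −0.527 when the contigs were chosen with uninfested replicate 1 or 2 of the control plants left out. It was −0.663 and −0.800 with infested replicate 1 or 2 left out. The change of −3.25 points in flooding plants was −1.38, −1.13, −1.45 and −1.60 in these same fits.

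**Figure D4:**
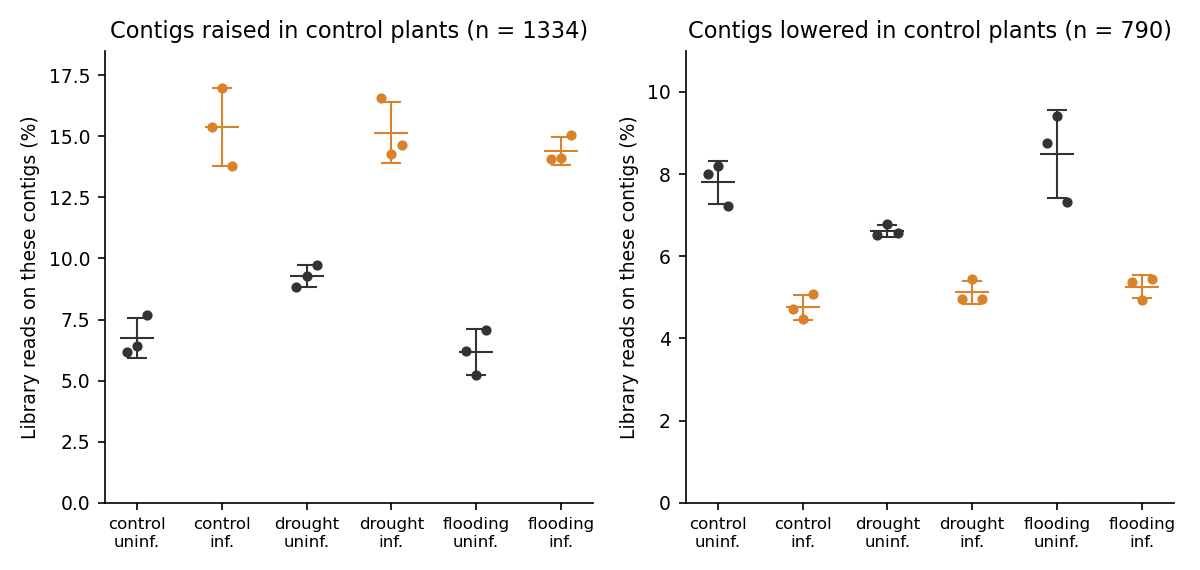
Percentage of reads on tested contigs that fell on the 1334 contigs raised (left) and the 790 lowered (right) in control plants, in each of the 18 libraries, with the mean and SD of 3 libraries (bars). Control libraries chose the contigs. Infested libraries (orange) lie at 13.8% or more on the left in all 3 water treatments.

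Single contigs raised by feeding in control plants were also called in the other water treatments at rates that are given beside their backgrounds. In drought plants, 446 of the 1334 (33.4%) were called as raised, where 2.87% of all tested contigs were. In flooding plants it was 1080 (81.0%), with a background of 9.58%. None of the 1334 was called as lowered in either. Of the lowered contigs, 38 of 790 (4.81%) were called as lowered in drought plants, with a background of 0.342%, and 412 (52.2%) in flooding plants, with a background of 5.79%. The median log2 fold change of the raised contigs was 0.60 in drought and 1.01 in flooding plants, against 0.98 in control plants and medians over all tested contigs of 0.0030, 0.0077 and −0.021. The contigs were chosen on the control value, which is therefore not comparable with the other 2. For lowered contigs the medians were −0.22 in drought and −0.51 in flooding plants.

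Joint calls were counted as well. Both other water treatments called 421 of the 1334 raised contigs (31.6%), and 229 (17.2%) were called in neither, against 2.45% and 90.0% of all tested contigs for calls as raised. Of the 102 contigs raised at least 8-fold, 65 (63.7%) were called as raised in both drought and flooding plants and 32 in flooding plants without a call in drought plants. None was called in drought plants alone, and 5 were called in neither. Over all tested contigs, 7.13% were called as raised in flooding plants without such a call in drought plants. For drought plants alone the share was 0.416%, and none of 102 contigs is near that share. Of the 168 contigs lowered at least 2-fold, 15 were called in both, 76 in flooding plants without a call in drought plants, and 77 in neither. Over all tested contigs, 0.223% were called as lowered in both, 5.56% in flooding plants without such a call in drought plants, and 94.1% in neither. A call in 1 water treatment and not in another does not show that the responses differ. In 1167 of the 1334 raised contigs (87.5%) the fitted response was larger in flooding than in drought plants, against 51.2% of all tested contigs.

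**Figure D5:**
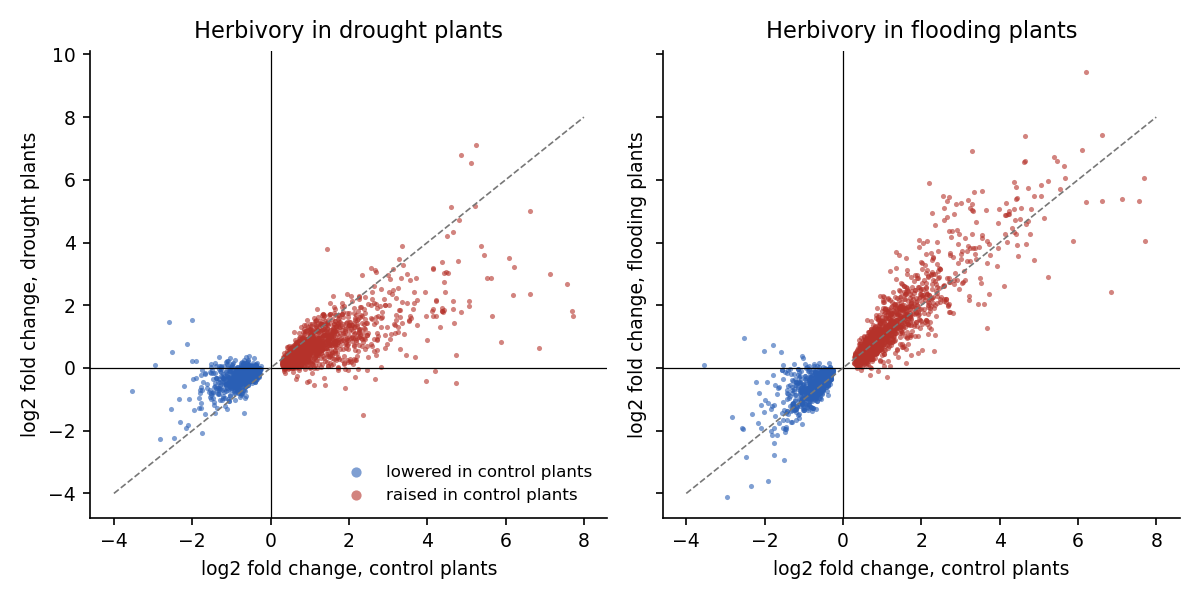
Log2 fold change by feeding in control plants against that in drought (left) and flooding plants (right), for contigs raised (red) or lowered (blue) in control plants; the dashed line marks equal change. Points lie mostly in the 2 quadrants of equal sign, with drought values nearer to 0 (medians of 0.60 and −0.22) than flooding values (1.01 and −0.51).

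For the contigs named by ID, levels in uninfested plants differed between water treatments. comp12126_c0_seq1 stood at 78.4 ± 8.04 CPM in uninfested drought plants and 174 ± 36.7 CPM in infested ones (SD, n = 3 each; log2 fold change 1.15 ± 0.22, SE; edgeR's adjusted p = 0.00992), and the uninfested drought level lay near the infested control level of 97.6 ± 25.3 CPM. In flooding plants it went from 8.28 ± 3.23 to 88.9 ± 10.1 CPM (3.42 ± 0.25, adjusted p = 1.72e-06). comp11888_c0_seq1 was at 2.73 ± 0.334 CPM in uninfested and 13.9 ± 0.209 CPM in infested drought plants, and at 0.232 ± 0.195 and 9.97 ± 1.45 CPM in flooding plants. The fitted response in drought minus that in control plants was −2.09 ± 0.33 for comp12126_c0_seq1 and −4.28 ± 0.69 for comp11888_c0_seq1 on the log2 scale (SE). Neither difference passed the threshold across all contigs (edgeR adjusted p = 0.127 for both). The control libraries also chose the contigs named by ID, so their differences in response from control plants are a description.

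The lowered contigs named by ID were lower in infested plants in all 3 water treatments, with different uninfested levels. comp14844_c0_seq1 stood at 44.3 ± 6.87 CPM in uninfested drought and 158 ± 20.9 CPM in uninfested flooding plants. It stood at 9.28 ± 1.53 and 53.4 ± 7.51 CPM in the infested ones (SD, n = 3 each, edgeR adjusted p = 0.000275 and 0.000253). Its responses minus that in control plants were 0.58 ± 0.34 in drought and 1.27 ± 0.33 in flooding plants on the log2 scale (SE, adjusted p = 0.765 and 1). comp2823_c0_seq1 stood at 50.6 ± 8.12 and 47.8 ± 12.7 CPM in uninfested plants, within the spread of the infested control level of 56.8 ± 10.9 CPM. It stood at 20.8 ± 3.03 and 25.0 ± 2.81 CPM in infested ones (edgeR's adjusted p = 0.00125 and 0.00252). Its differences in response from control plants were 0.09 ± 0.26 in drought and 0.44 ± 0.25 in flooding plants on the log2 scale (SE, adjusted p = 0.946 and 1). Among the other contigs described by length, the 1278-base contig was at 25.5 ± 24.8 CPM in uninfested and 34.4 ± 0.387 CPM in infested drought plants, against 0.775 ± 0.352 and 22.6 ± 3.85 CPM in control plants, and its change in drought plants was not called (adjusted p = 0.774).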

How the data were processed

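Both deposited tables hold leaf RNA-seq values per assembled contig for 18 libraries. The first holds raw read counts, per the file headers, and the second a normalized signal with noise contigs removed, per the deposited file's title. On the values, the signal was the count times 1 factor per library, per kilobase (largest relative departure 1.1e-09). Per the submitters' processing notes, Bowtie 0.12.7 and DESeq were used in roles that are not stated. How contigs were assembled and counted, and whether by strand, is not given in the sources used here. Contigs were kept with filterByExpr (minimum count 10, minimum total 15). Counts were scaled by TMM and tested with edgeR 4.0.16 (R 4.3.3, robust quasi-likelihood F test, 6 group means, 18 libraries, 12 residual degrees of freedom), with Benjamini-Hochberg adjustment over 20170 contigs. SE is the absolute log2 fold change over the square root of F. The common biological coefficient of variation was 18.6%. Read shares were compared with SciPy 1.17.1. Alternatives used DESeq2 1.42.0 and limma 3.58.1.

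Named contigs were called, changed at least 2-fold, had at least 8 CPM in the higher group and did not overlap between groups. The 2 rises and 2 falls of smallest p are named by ID, and the 10 largest rises and falls and the 5 largest gains and losses in CPM by length. Lengths can be shared by several contigs. The comparison, the rule and the lists were chosen with earlier results of these data known. Replicate numbers are shared between groups, and the labels do not say whether a number marks a shared plant, day or batch. Same-numbered control libraries did not deviate together, which cannot decide this.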

Additional observations from a re-analysis of the deposited data

How the results depend on the processing

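Direction was kept in every alternative tried for the 4 contigs named by ID, whose calls also held in each. No contig called both with all settings as given and under an alternative changed direction. The alternatives reuse the same counts, and the contigs named by ID were chosen there by smallest p, so both outcomes were likely in advance. Leaving out 1 control-watered library at a time, called contigs ranged from 937 to 2129, raised contigs from 711 to 1223, lowered contigs from 226 to 906, and those changed at least 2-fold from 446 to 673 (raised) and from 70 to 239 (lowered). The fits without uninfested replicate 1 or 2 shared 47.1% and 43.7% of the 2124 contigs. Counts stayed within 1.5 times under the other alternatives, with 2683 calls in DESeq2, 2393 with only the 6 libraries compared, 1952 with no filter on low counts, 2226 with a minimum count of 50, 2262 with upper-quartile scaling (53.5% rises), 2108 with RLE size factors and 2168 with limma on log2(value + 1) of the normalized table. With the replicate number as a block, 1949 contigs were called, 86.8% of the 2124 among them. Same-numbered libraries deviated with correlations of −0.18, 0.061 and −0.12, and differently numbered ones with −0.13 to 0.22. These few values cannot show whether a number marks a shared plant, day or batch, which the labels do not say. The log2 fold changes with the block were 3.23 for comp12126_c0_seq1, 6.59 for comp11888_c0_seq1, −2.81 for comp14844_c0_seq1 and −1.38 for comp2823_c0_seq1. The leave-one-out ranges of these were 3.05 to 3.42, 5.96 to 9.61, −3.09 to −2.56 and −1.55 to −1.28. The infested minus uninfested read share of raised contigs ranged from 4.59 to 5.61 percentage points in drought and from 6.17 to 7.90 in flooding plants, and that of lowered contigs from −1.67 to −0.527 and from −3.71 to −1.13. The cause of the dependence on single libraries was not tested. In the lowest abundance class, of 1.40 CPM or less, no change under 1.16 on the log2 scale was called. Whether smaller changes could have been detected there was not tested.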
